A study of Homo sapiens with 12 samples.

Results

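The genes examined here were the CXC chemokines CXCL1, CXCL2, CXCL3, CXCL5, CXCL8, CXCL9, CXCL10, CXCL11 and CXCL16, together with CX3CL1. They were picked by gene symbol, with earlier results of these data known. Of these 10 genes, 5 had a named feature on the array, with 1 feature each, out of 34487 features in all. CXCL1 (NM_001511), CXCL2 (NM_002089), CXCL5 (NM_002994) and CXCL8 (NM_000584) represented 4 of the 5 neutrophil-attracting members, and CX3CL1 (NM_002996) was 1 of the 2 membrane-anchored members. CXCL3, CXCL9, CXCL10, CXCL11 and CXCL16 were left out, because no feature could be matched to them by name. Of all features, 19812 carried no name, so values for these genes may be present but unrecognized. With 0 of the 3 interferon-induced members identified, their contrast with the neutrophil-attracting chemokines could not be made on measured chemokine mRNA.

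The cells were PANC-1, a line established from a human pancreatic ductal adenocarcinoma, and 12 one-colour Cy3 microarrays measured their mRNA, with 3 arrays for each of 4 groups. PANC-1 cells grew alone under normoxia (NPC) or hypoxia (HPC), or shared a transwell for 4 days with tumor-associated macrophages (TAMs) under normoxia (NPM) or hypoxia (HPM). The TAMs were macrophages made from the human monocytic line THP-1, a model of M2-polarized macrophages, and the oxygen level under hypoxia was not given in the sources used here. Each group came from 3 independent experiments with 1 cancer cell line and no genetic change, and the membrane of the transwell kept the cell types apart.

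Chemokines are small secreted proteins that guide leukocytes along a concentration gradient. CXCL1, CXCL2, CXCL3, CXCL5 and CXCL8 carry the Glu-Leu-Arg motif before their first cysteines, bind CXCR2 (CXCL8 also binds CXCR1) and attract neutrophils. They are classic targets of NF-kB downstream of interleukin-1 and TNF. CXCL9, CXCL10 and CXCL11 bind CXCR3, attract activated T cells and are induced by interferon. CX3CL1 (fractalkine) and CXCL16 are made as transmembrane proteins on a mucin-like stalk, act as adhesion molecules there, and are released by ADAM10 and ADAM17. CX3CL1 binds CX3CR1 on monocytes, macrophages and cytotoxic lymphocytes.

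The sequences just before the annotated starts of the 4 measured neutrophil-attracting genes are shown because all 4 hold a match to the NF-kB motif there. Each is the 120 bases before the start, on the strand of the gene, from RefSeq (GRCh38.p14), with the matches to GGNNTTTCC in capitals. CXCL8 lies at chr4:73740449-73740568 on the plus strand, CXCL1 at chr4:73869273-73869392 on the plus strand, CXCL5 at chr4:73998678-73998797 on the minus strand and CXCL2 at chr4:74099196-74099315 on the minus strand.
CXCL1: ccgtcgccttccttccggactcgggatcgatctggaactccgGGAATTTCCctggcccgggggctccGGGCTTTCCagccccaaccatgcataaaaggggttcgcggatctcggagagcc
CXCL2: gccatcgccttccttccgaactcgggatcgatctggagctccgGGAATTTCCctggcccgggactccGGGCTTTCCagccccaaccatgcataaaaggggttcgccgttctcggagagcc
CXCL5: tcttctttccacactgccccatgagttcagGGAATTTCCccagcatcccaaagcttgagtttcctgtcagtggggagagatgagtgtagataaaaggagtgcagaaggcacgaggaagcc
CXCL8: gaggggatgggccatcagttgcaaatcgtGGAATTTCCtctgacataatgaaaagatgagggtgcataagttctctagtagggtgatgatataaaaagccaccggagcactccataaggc
CXCL1 and CXCL2 each held 2 matches, GGAATTTCC and GGGCTTTCC, and their windows shared a run of 42 identical bases. CXCL5 and CXCL8 each held 1 match, GGAATTTCC, and no other pair among the 4 windows shared a run of more than 11 bases.

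Promoter windows of 300 bases (250 before to 50 after the start) were found for 8 of the 10 genes, all except CX3CL1 and CXCL16. On both strands, GGNNTTTCC was present in 7 of these 8 windows and in 6.26% of 27305 RefSeq promoters of the same length. The interferon-stimulated response element, searched as GAAA, any 2 bases and GAAA, was found in the windows of CXCL9 and CXCL10, against 3.65% of all promoters. The gamma-activated sequence TTCNNNGAA was found in those of CXCL5 and CXCL11, against 7.88%, and the match in CXCL5 overlapped its NF-kB match. NCGTG was searched as a looser form of the core of the hypoxia response element, which begins with A or G. It was found in 5 of the 8 windows and in 66.5% of all promoters, and the match in CXCL8 overlapped its NF-kB match by 1 base. The match was TCGTG in CXCL8 and CXCL2 and CCGTG in CXCL3, while CXCL10 held ACGTG and CXCL5 held GCGTG and TCGTG. The share of all promoters with A or G in the first place was not counted. A match describes letters in a window and not a bound site.

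**Figure D1:**
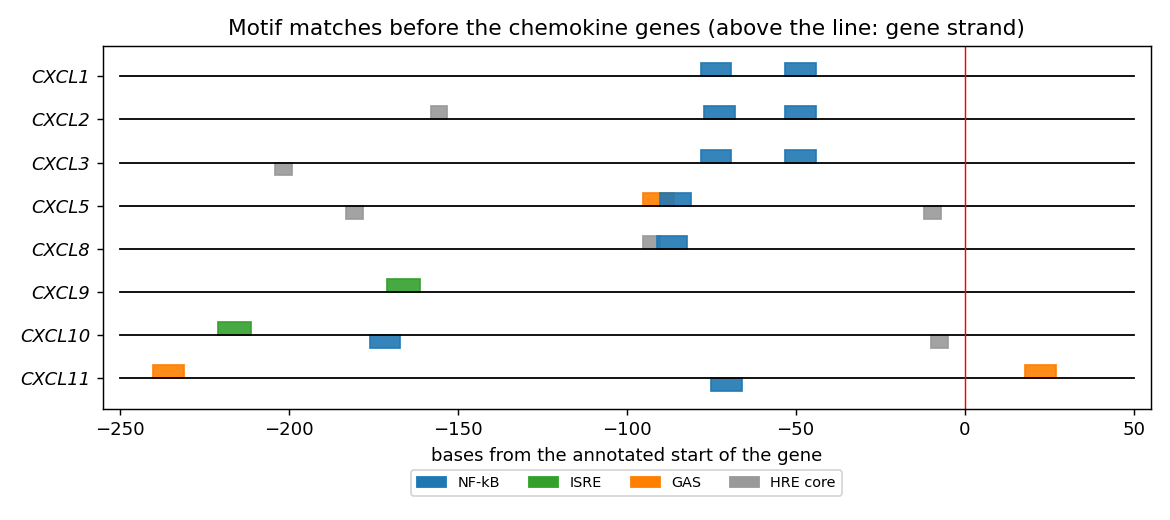
Matches to 4 motifs in the promoter windows of 8 chemokine genes, plotted against the distance in bases from the annotated start, with boxes above each line for the strand of the gene and below it for the other strand. The NF-kB matches of CXCL1, CXCL2 and CXCL3 lie as pairs between 78 and 45 bases before the start, and those of CXCL5 and CXCL8 lie singly near 90 bases before it. Boxes labelled HRE core are matches to the looser pattern NCGTG.

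CXCL1 mRNA (the chemokine first known as GRO-alpha) was lowest in co-cultured cells under hypoxia. Its log2 intensity was 9.82, 9.53 and 9.65 in the NPC arrays 1, 2 and 3 and 9.80, 9.49 and 9.36 in the NPM arrays. It was 9.16, 9.09 and 8.94 in the HPC arrays and 8.50, 8.23 and 8.0 in the HPM arrays. The NPC and NPM arrays overlapped, all HPC arrays lay below both of them, and all HPM arrays lay below all HPC arrays. The group means on the log2 scale were 9.67 ± 0.14, 9.55 ± 0.22, 9.07 ± 0.11 and 8.24 ± 0.25 (SD, n = 3) for NPC, NPM, HPC and HPM.

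CXCL2 mRNA, from the close paralog of CXCL1, had a similar order of groups. The log2 intensity of CXCL2 was 9.74, 9.65 and 9.24 in NPC and 9.94, 9.68 and 9.55 in NPM. It was 8.87, 8.95 and 8.61 in HPC and 8.32, 7.68 and 7.99 in HPM. The NPC and NPM arrays again overlapped, and the HPC and then the HPM arrays lay below them without overlap. The group means were 9.55 ± 0.27, 9.73 ± 0.20, 8.81 ± 0.18 and 8.0 ± 0.32 (SD, n = 3). Over the 12 arrays the log2 intensities of CXCL1 and CXCL2 had a Pearson r of 0.95 and a Spearman rho of 0.93, as a description of arrays that fall into 4 groups and share RNA and normalization, and the r of their deviations from the group means was 0.61. Probe sequences were not used here, and whether the 2 features tell the transcripts of these paralogs apart was not tested.

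CXCL8 (interleukin-8) had group means within 0.43 of each other on the log2 scale. Its log2 intensity was 10.07, 9.86 and 9.91 in NPC and 10.20, 9.82 and 9.83 in NPM. It was 10.25, 10.05 and 9.90 in HPC and 9.87, 9.48 and 9.58 in HPM. Array 1 was the highest of its group in all 4 groups, and the only groups under the same oxygen level that did not overlap were HPC and HPM, by a gap of 0.04. The means were 9.95 ± 0.11, 9.95 ± 0.21, 10.07 ± 0.18 and 9.64 ± 0.20 (SD, n = 3).

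CXCL5, also known as ENA-78, had the largest SD of the 5 genes in NPC, NPM and HPC. Its log2 intensity was 10.79, 10.73 and 9.90 in NPC and 10.8, 10.35 and 9.83 in NPM. It was 10.56, 9.99 and 9.95 in HPC and 10.04, 9.60 and 10.02 in HPM. The arrays numbered 3 were the lowest of their group in NPC, NPM and HPC, and all 4 groups overlapped. The means were 10.47 ± 0.50, 10.33 ± 0.49, 10.17 ± 0.34 and 9.89 ± 0.25 (SD, n = 3).

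CX3CL1 differed from these 4 genes in that both co-cultured groups lay above the cells grown alone. Its log2 intensity was 10.64, 10.95 and 10.73 in NPC and 12.33, 12.23 and 12.26 in NPM. It was 11.13, 11.14 and 10.98 in HPC and 11.70, 11.93 and 11.76 in HPM. No 2 of the 4 groups overlapped, and the order from low to high was NPC, HPC, HPM and NPM, with a gap of 0.04 between the nearest NPC and HPC arrays. The means were 10.77 ± 0.16, 12.27 ± 0.05, 11.08 ± 0.09 and 11.80 ± 0.12 (SD, n = 3) for NPC, NPM, HPC and HPM.

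**Figure D2:**
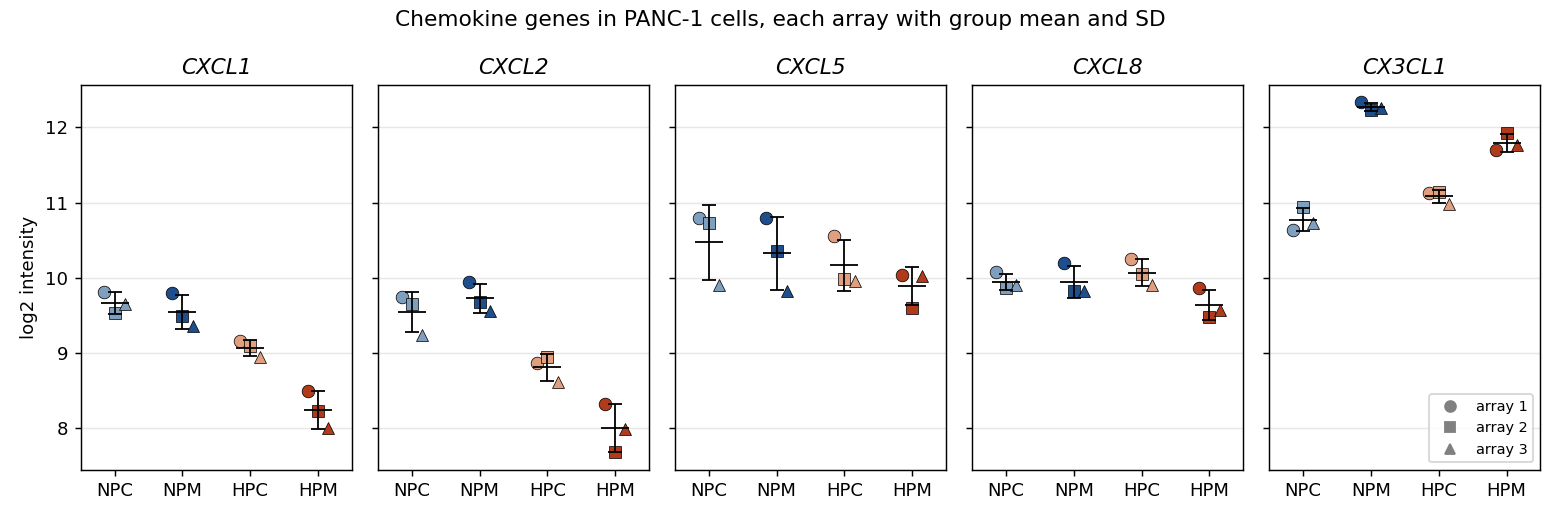
Log2 intensity of 5 chemokine genes in each of the 12 arrays, with 1 panel per gene, symbols for the array number, a bar for the group mean and whiskers for the SD (n = 3). CXCL1 and CXCL2 descend from the normoxia groups to HPM, CX3CL1 is high in NPM and HPM, and levels of different genes come from different probes and are not comparable.

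The effect of TAMs under normoxia was tested first. In NPM vs NPC none of the 5 features passed an adjusted p of 0.05 in limma, where 0.0232% of all features passed, and none passed with the methods' t-test after adjustment. CX3CL1 alone had an unadjusted p under 0.05, as 13.7% of features did. Its mean was 2.83-fold higher in NPM (log2 difference 1.5, SE 0.15, 95% interval 1.13 to 1.87, limma adjusted p = 0.0816), and 0.162% of features had a larger positive difference. All NPM arrays lay above all NPC arrays by at least 1.28 on the log2 scale, as 8.84% of features were higher in every array, and the differences between same-numbered arrays were 1.69, 1.28 and 1.53. With the array number as a block within an oxygen level, over all 12 arrays, CX3CL1 passed (limma adjusted p = 0.000106), and so did 8.76% of features.

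The 4 neutrophil-attracting genes overlapped between NPM and NPC. The log2 difference was -0.12 (95% interval -0.55 to 0.31) for CXCL1, 0.18 (-0.30 to 0.66) for CXCL2, -0.15 (-0.96 to 0.67) for CXCL5 and 0.00 (-0.41 to 0.42) for CXCL8. Their adjusted p in limma lay between 0.746 and 0.994. The intervals held values of both signs and were widest for CXCL5. The median difference of the 4 genes was -0.06, beside -0.01 over all features.

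The same question under hypoxia was addressed by HPM vs HPC. None of the 5 features passed in limma, where 1.02% of features passed, and none passed with the methods' t-test after adjustment, while 4 of the 5 had an unadjusted p under 0.05, as 20.5% of features did. CX3CL1 was 1.64-fold higher in HPM (log2 difference 0.71, SE 0.14, limma adjusted p = 0.0638), and its same-numbered differences were 0.57, 0.79 and 0.78. CXCL1 was 1.77-fold lower (log2 difference -0.82, SE 0.17, limma adjusted p = 0.0737) and CXCL2 was 1.75-fold lower (log2 difference -0.81, SE 0.21, limma adjusted p = 0.101). The interleukin-8 gene had a log2 difference of -0.43 (SE 0.17, limma adjusted p = 0.231) and CXCL5 of -0.28 (SE 0.23, limma adjusted p = 0.550).

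In HPM vs HPC the groups did not overlap for CX3CL1, which was higher in every HPM array, or for CXCL1, CXCL2 and CXCL8, which were lower in every HPM array. Over all features 11.3% were higher and 16.4% were lower in every HPM array. All 4 neutrophil-attracting genes had a negative difference, with a median of -0.62, whereas 51.5% of all features were negative and their median was -0.02. With the array number as a block within an oxygen level, 4 of the 5 genes passed in limma, with adjusted p = 0.00254 for CX3CL1, 0.00289 for CXCL1, 0.00925 for CXCL2 and 0.0426 for CXCL8, and 14.9% of all features passed.

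HPC vs NPC asked for the effect of hypoxia on cells grown alone. None of the 5 features passed in limma (0.157% of all features passed) or with the methods' t-test after adjustment, and 2 of the 5, CXCL1 and CXCL2, had an unadjusted p under 0.05, as 17.8% of features did. CXCL1 was 1.52-fold lower (log2 difference -0.60, SE 0.16, limma adjusted p = 0.140) and CXCL2 was 1.67-fold lower (log2 difference -0.74, SE 0.20, limma adjusted p = 0.141). Both were lower in every HPC array, as 13.5% of features were. CX3CL1 had a log2 difference of 0.31 (95% interval -0.07 to 0.69) and was higher in every HPC array, as 12.3% of features were. CXCL5 and CXCL8 overlapped, with log2 differences of -0.31 (-1.02 to 0.41) and 0.12 (-0.27 to 0.52).

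The effect of hypoxia on co-cultured cells was tested in HPM vs NPM. In that comparison CXCL1 and CXCL2 fell and 3 of the 5 genes did not pass, where 10.4% of all features passed and 5.79% passed as lower. CX3CL1 also had an unadjusted p under 0.05, as 27.9% of features did. CXCL2 fell 3.31-fold (log2 difference -1.73, SE 0.21, 95% interval -2.24 to -1.22, limma adjusted p = 0.0103), and 0.447% of features had a lower difference. CXCL1 fell 2.47-fold (log2 difference -1.30, SE 0.20, 95% interval -1.78 to -0.83, limma adjusted p = 0.0163), and 1.60% of features had a lower difference. The nearest HPM and NPM arrays were 1.23 apart for CXCL2 and 0.86 apart for CXCL1 on the log2 scale, as 18.2% of features were lower in every HPM array.

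Leaving out 1 array ended some of these calls in limma. Without NPM replicate 2, neither gene passed (adjusted p = 0.0656 for CXCL1 and 0.0523 for CXCL2). CXCL1 alone was lost without HPM replicate 2 (adjusted p = 0.0617), HPM replicate 3 (0.0511) or NPM replicate 1 (0.0599), and both were lost without the arrays numbered 3 (0.0838 and 0.0795). The log2 difference itself stayed between -1.43 and -1.18 for CXCL1 and between -1.89 and -1.57 for CXCL2 over all alternatives.

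CX3CL1 was 1.39-fold lower in HPM than in NPM (log2 difference -0.48, SE 0.14, limma adjusted p = 0.0833). Every HPM array was below every NPM array, as for 18.2% of all features. CX3CL1 passed with the block within an oxygen level (limma adjusted p = 0.0410), as 15.8% of features did. The methods' t-test after adjustment passed CXCL1, CXCL2 and CX3CL1 in HPM vs NPM, as it did 2291 of all 34487 features. CXCL5 (log2 difference -0.44, limma adjusted p = 0.362) and CXCL8 (-0.31, limma adjusted p = 0.336) overlapped between HPM and NPM. For a single gene the exact two-sided permutation test over 3 against 3 arrays cannot give a p below 0.1, and each pair of groups that did not overlap reached that value.

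Whether the co-culture effect depended on oxygen was tested with an interaction term over the 12 arrays. None of the 5 genes passed in limma, where 0.452% of features passed, while 3 of the 5 had an unadjusted p under 0.05, as 11.4% of features did. The co-culture difference of CX3CL1 was 1.5 under normoxia and 0.71 under hypoxia on the log2 scale (interaction -0.79, SE 0.19, 95% interval -1.20 to -0.37, limma adjusted p = 0.112). The interaction was -0.99 (SE 0.29, limma adjusted p = 0.197) for CXCL2 and -0.71 (SE 0.24, limma adjusted p = 0.276) for CXCL1. It was -0.43 (-0.95 to 0.08) for CXCL8 and -0.13 (-1.09 to 0.82) for CXCL5. The methods' t-test after adjustment passed CX3CL1 alone of the 5 genes, and 261 of all 34487 features. With the block within an oxygen level, CX3CL1 (limma adjusted p = 0.0255) and CXCL2 (0.0461) passed, as 3.30% of features did.

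**Figure D3:**
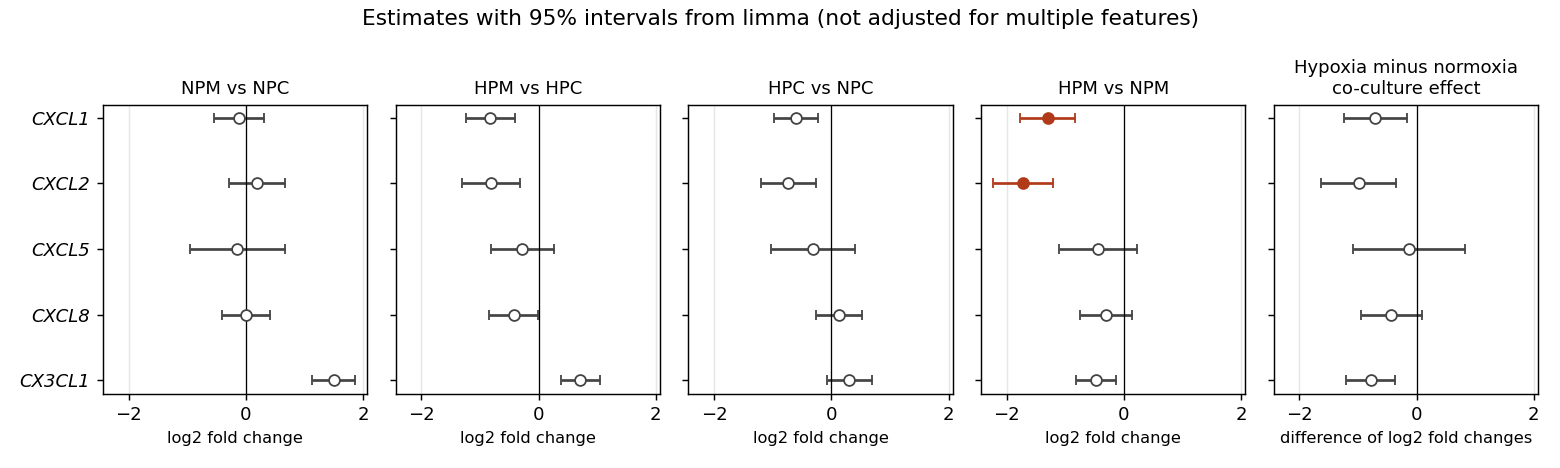
Log2 differences of the 5 chemokine genes in 4 comparisons and in the hypoxia minus normoxia co-culture effect, as limma estimates with 95% intervals that are not adjusted for the number of features, filled where the adjusted p is under 0.05. CXCL1 (-1.30) and CXCL2 (-1.73) in HPM vs NPM are the filled points, and CX3CL1 is the 1 gene to the right of 0 in both co-culture comparisons by more than its interval.

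These 4 comparisons share groups, since each group serves in 2 of them. Side by side, the 4 neutrophil-attracting genes had a median log2 difference of -0.06 in NPM vs NPC, -0.62 in HPM vs HPC, -0.45 in HPC vs NPC and -0.87 in HPM vs NPM, and CX3CL1 had 1.5, 0.71, 0.31 and -0.48. In RNA pooled from all PANC-1 cells of a sample, fewer cells with a transcript and less of it per cell cannot be told apart.

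The inducers and brakes of NF-kB were measured beside their targets, with a named feature for 12 of 14 listed genes. None passed in NPM vs NPC, where 3 were higher and 1 was lower at an unadjusted p under 0.05, as 13.7% of all features were in either direction. In HPM vs HPC, 4 were higher and 2 were lower at that level, beside 20.5% of all features. In HPM vs HPC, NFKBIA, the inhibitor of NF-kB that NF-kB itself induces, rose by 1.23 on the log2 scale (SE 0.19, limma adjusted p = 0.0494) and was the 1 gene of the list to pass, but it did not pass in limma when any 1 of the 6 arrays was left out (adjusted p 0.107 to 0.202). IL1B, which encodes the inducer interleukin-1 beta, had log2 means of 9.28 ± 0.34 in NPC, 6.53 ± 0.55 in NPM, 9.43 ± 0.20 in HPC and 7.52 ± 0.78 in HPM (SD, n = 3). Its log2 difference was -2.75 in NPM vs NPC (SE 0.32, limma adjusted p = 0.0843) and -1.90 in HPM vs HPC (SE 0.38, limma adjusted p = 0.0655). The subunit genes NFKB2 and RELB had differences of 0.73 and 0.75 in HPM vs HPC (limma adjusted p = 0.0637 and 0.0815). None of the 12 passed in HPC vs NPC or in HPM vs NPM.

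No interferon-induced chemokine had a named feature, but 11 genes of the interferon response were examined and all had one. In HPM vs HPC, IRF1, a transcription factor that interferon induces, rose by 1.66 on the log2 scale (SE 0.15, limma adjusted p = 0.0346) and was the 1 gene of the 11 to pass, while 6 were higher at an unadjusted p under 0.05, beside 20.5% of all features in either direction. It did not pass when any 1 of the 6 arrays was left out (limma adjusted p 0.107 to 0.197). None passed in NPM vs NPC, where 3 were higher at an unadjusted p under 0.05, beside 13.7% of all features, and STAT2 had a difference of 0.65 (limma adjusted p = 0.145). The medians over the 11 genes were 0.34 in NPM vs NPC and 0.41 in HPM vs HPC, beside -0.01 and -0.02 over all features.

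IRF1 also differed between the co-cultured groups. In HPM vs NPM it rose by 0.99 on the log2 scale (SE 0.17, limma adjusted p = 0.0215), and it passed in 1 of 6 fits without 1 array (0.0486 to 0.0748). The means of IRF1 were 12.32 ± 0.17, 12.68 ± 0.20, 12.01 ± 0.10 and 13.67 ± 0.14 (SD, n = 3) in NPC, NPM, HPC and HPM. IRF1 was therefore highest in HPM, whereas CX3CL1 was highest in NPM. The interaction passed for IRF1 (1.30, SE 0.22, limma adjusted p = 0.0342), the 1 gene of the 11 to do so, and was lost when any 1 of the 12 arrays was left out (adjusted p 0.0701 to 0.110). With the block within an oxygen level each of these IRF1 calls passed.

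Of 9 listed receptors, 2 were measured. CXCR4, the receptor for CXCL12, had log2 means of 8.44 ± 0.11 in NPC, 7.79 ± 0.10 in NPM, 9.75 ± 0.33 in HPC and 10.12 ± 0.22 in HPM (SD, n = 3). It rose in HPM vs NPM by 2.33 (SE 0.17, limma adjusted p = 0.00635), the opposite direction to CXCL1 and CXCL2, and it passed whichever array was left out (adjusted p 0.0270 to 0.0481). Its difference in HPC vs NPC was 1.31 (SE 0.21, limma adjusted p = 0.0693). CXCR5, the receptor for CXCL13, passed in no comparison. Of 10 other chemokines listed, CXCL17, PF4, PPBP and XCL2 were measured and none passed in any comparison. The 6 enzymes that release or trim chemokines (ADAM10, ADAM17, DPP4, MMP1, MMP2 and MMP9) were all measured and none passed. MMP2 had the smallest p of the 6 in NPM vs NPC (log2 difference 0.62, limma adjusted p = 0.199). In HPM vs HPC it was MMP1 (0.63, limma adjusted p = 0.258). ADAM17 had a difference of 0.37 (limma adjusted p = 0.436) in NPM vs NPC and of 0.26 (limma adjusted p = 0.493) in HPM vs HPC.

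**Figure D4:**
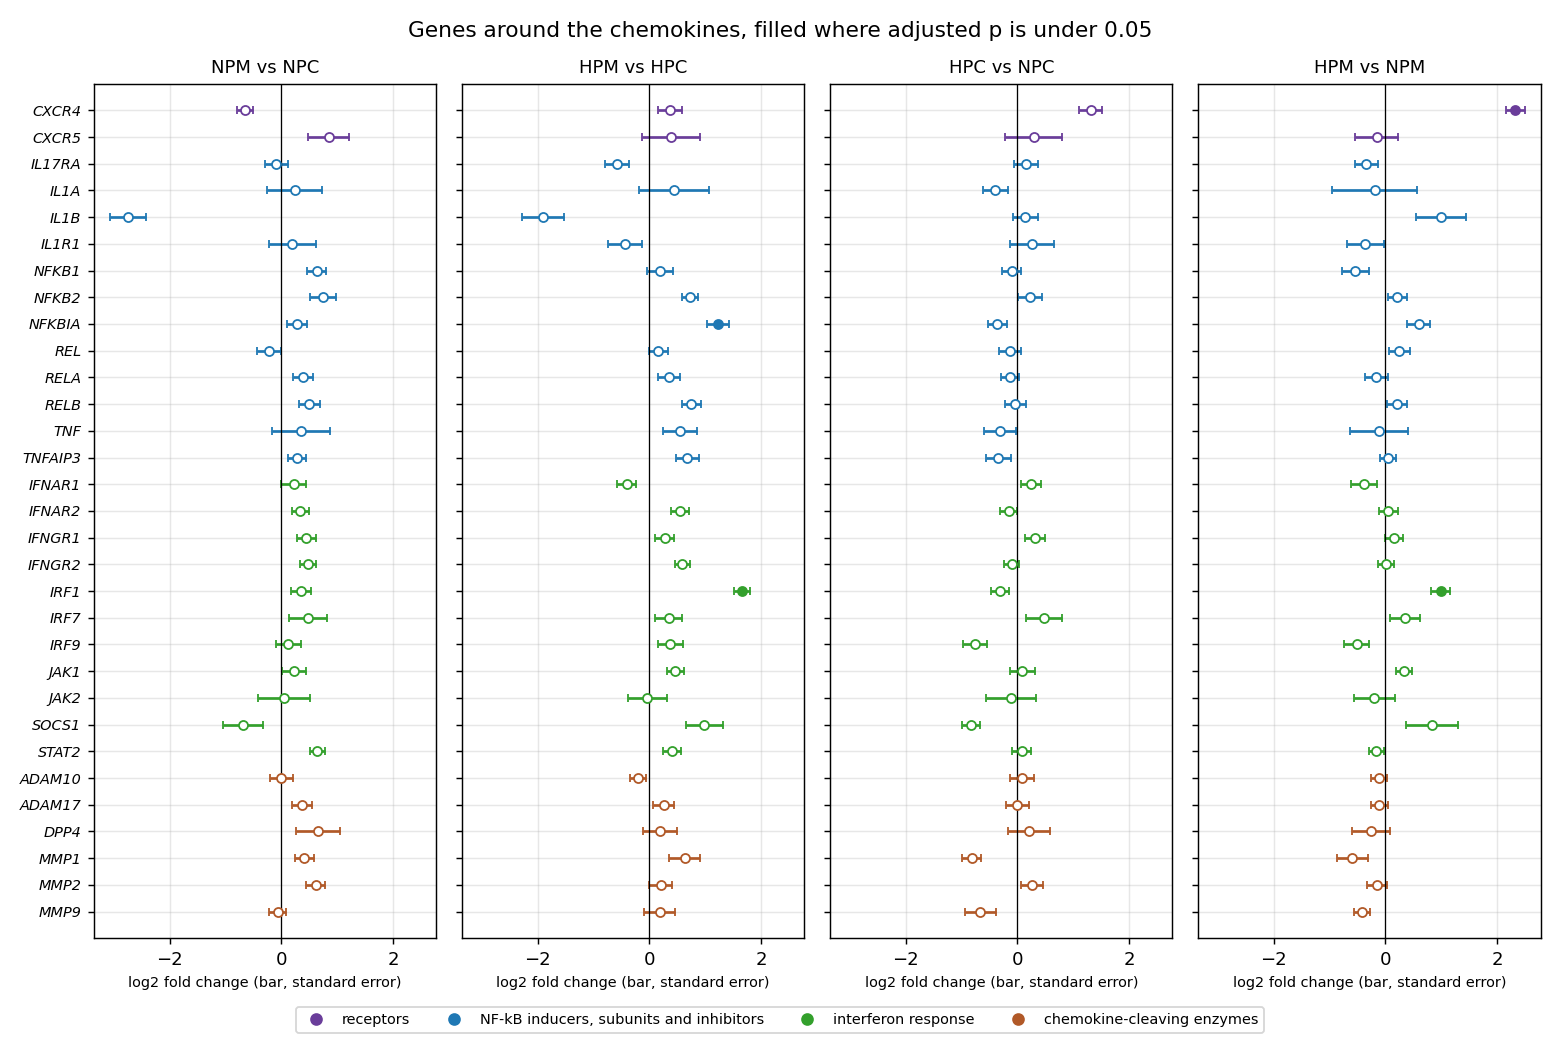
Log2 differences of the measured receptors, NF-kB genes, interferon response genes and chemokine-cleaving enzymes in 4 comparisons, as limma estimates with standard errors, filled where the adjusted p is under 0.05. Filled points are NFKBIA (1.23) and IRF1 (1.66) in HPM vs HPC, and CXCR4 (2.33) and IRF1 (0.99) in HPM vs NPM, and IL1B lies far to the left in both co-culture comparisons without passing.

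The genes whose pattern over the 12 arrays was most like that of CX3CL1, among 13422 genes, were PARP12 (Pearson r = 0.971, Spearman rho = 0.958), CD74 (0.962 and 0.958), STAT2 (0.958 and 0.923), ANTXR2 (0.958 and 0.867) and PSMB9 (0.951 and 0.804). CD74, the chaperone of MHC class II molecules, had log2 means of 9.80 in NPC, 11.78 in NPM, 10.25 in HPC and 10.92 in HPM, the same order of groups as CX3CL1. For CXCL8 they were TBRG1 (0.923 and 0.909), MYO9B (0.898 and 0.881), SOWAHC (0.880 and 0.685), SGO2 (0.854 and 0.839) and BMPR2 (0.850 and 0.790). These values describe 12 arrays in 4 groups, which share RNA and normalization with the gene they are set beside.

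The labels were checked against marker genes. Of 10 genes known to respond to low oxygen, 9 were measured. Of these, 7 (ADM, ANKRD37, BNIP3, CA9, NDRG1, SLC2A1 and VEGFA) rose in HPM vs NPM, where 10.4% of all features passed. The median log2 difference over the 9 was 1.34. In HPC vs NPC 0 of them passed, beside 0.157% of all features. All 9 were higher there at an unadjusted limma p under 0.05, beside 17.8% of all features in either direction, with a median of 1.01. ANKRD37 also rose in HPM vs HPC by 1.23 (limma adjusted p = 0.0362) and passed in the interaction (2.32, limma adjusted p = 0.0116), calls that held in 0 of 6 and 12 of 12 fits without 1 array. In HPM vs NPM, ANKRD37 passed in 6 of 6 such fits and the other 6 genes in 0 to 4. VEGFA, a classic target of hypoxia, rose by 1.67 in HPM vs NPM (SE 0.23, limma adjusted p = 0.0127), a call lost without NPM replicate 2 or HPM replicate 2 (highest adjusted p 0.0592). The epithelial keratin gene KRT8 lay above at least 98.6% of features in every array, and all 6 epithelial markers were measured. EPCAM and CDH1 rose in HPM vs NPM, by 1.24 and 1.23 on the log2 scale (limma adjusted p = 0.0299 and 0.0457), the comparison in which CXCL1 and CXCL2 fell, and these calls passed in 0 and 1 of 6 fits without 1 array. KRT7, KRT8, KRT18 and KRT19 had negative differences there (-0.11, -0.22, -0.01 and -0.45) and did not pass, and the median over the 6 markers was -0.06. EPCAM lay below the median of all features in every array. The summed linear intensity of the 6 epithelial markers was 57780 to 68770 in NPC, 48880 to 53530 in NPM, 60950 to 70520 in HPC and 44990 to 48020 in HPM, lower in both co-cultured groups without overlap, and the part of these markers in the chemokine values was not tested. Of 19 macrophage markers, 14 were measured, none was at 0, and 13 of them (12 in NPM) lay below the median of all features in every array of a group.

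Summed macrophage marker intensity on the linear scale was higher in co-cultured cells with CD68 in the sum, but overlapped with that of cells grown alone without it. With all 14 markers the sum was 5409 to 6024 in NPC, 6378 to 6864 in NPM, 4654 to 4873 in HPC and 6810 to 7110 in HPM. Without CD68, a lysosomal protein that other cells also make, the sum of the other 13 markers was 1972 to 2030, 2002 to 2065, 1451 to 1930 and 1692 to 1727 in the same order. These ranges overlapped between NPC and NPM and between HPC and HPM. At an unadjusted limma p under 0.05, 2 of the 14 were higher and 4 lower in NPM vs NPC, beside 13.7% of all features. In HPM vs HPC 2 were higher and 0 lower at that level, beside 20.5%. The higher genes were ADGRE1 (log2 difference 1.34) and C1QA (0.75) in NPM vs NPC. They were ADGRE1 (1.14) and CD68 (0.80) in HPM vs HPC. Of the 14, 1 passed in NPM vs NPC, where 0.0232% of all features passed. This was LCP1, which fell by 3.24 on the log2 scale (SE 0.16, limma adjusted p = 0.00677) and passed in 1 of the 6 fits without 1 array (0.0446 to 0.0955). LCP1 also fell in HPC vs NPC (log2 difference -2.08, limma adjusted p = 0.0337) and passed in the interaction (2.92, limma adjusted p = 0.0146). LYZ rose in HPM vs NPM by 1.03 (limma adjusted p = 0.0498). Without 1 array, these calls passed in 0 of 6, 9 of 12 and 0 of 6 fits, and none of the 14 passed in HPM vs HPC. Both genes had low values. LCP1 lay above at most 22.6% of features in NPC and 0.0319% in NPM, and LYZ above at most 14.4% and 1.04%. The part of the macrophage markers in the CX3CL1 values was not tested. Of 6 neutrophil, 6 lymphocyte and 4 endothelial markers, 2, 1 and 1 were measured and none passed in any comparison.

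In a principal component analysis of the 6 arrays under normoxia, component 1 held 41.1% of the variance. NPC array 3 and NPM array 3 had the only scores above 0 on that component, 45.3 and 75.4. The other 4 arrays spread from -69.7 (NPC array 2) to -0.13 (NPM array 2). The arrays numbered 3 were the lowest of these 2 groups for CXCL5 and for CXCL2. The CX3CL1 difference between same-numbered arrays was 1.53 for the arrays numbered 3, within the range of the other pairs.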

How the data were processed

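The deposited values are linear intensities, 1 per feature and array, to which the authors had applied quantile normalization and RMA, a method that combines several probes into 1 value. The sources used here do not say how features were selected for the table, and no measure of background was used. The paper names a NimbleGen array and the submitters' description of the series an Arraystar array. Array medians lay between 9.17 and 9.29 on the log2 scale, and the number of arrays limits the precision.

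Intensities were log2-transformed and tested with limma 3.58.1 in R 4.3.3 (lmFit and eBayes, two-sided), with the 6 arrays that a comparison is about or, for the interaction, all 12. P values were adjusted by Benjamini-Hochberg across the 34487 features, with 0.05 as the threshold. The deposited probe table and RefSeq accessions named 14675 features. The steps were tested on simulated data, and figures were drawn with matplotlib 3.10.9. Members, gene lists and tests were chosen with earlier results of these data known. Every member with a feature was named, together with the listed genes that passed and some that had the smallest p of their list. Some other listed genes and the 5 genes most like CXCL8 and CX3CL1 were also named. CXCL10 had no named feature and has no such list. Of the interferon response list, 1 gene is not reported here.

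The numbers of the arrays come from the sample labels, and the sources do not say what a number marks. Within an oxygen level the residuals of same-numbered arrays correlated at 0.338, 0.281 and 0.520 between NPM and NPC and at 0.502, 0.267 and 0.543 between HPM and HPC, all above the limit of 0.1, so that the numbers were taken to pair these arrays. Between oxygen levels some correlations were below it (0.0250 for HPC and NPC, 0.0103 for HPM and NPM). The main fits did not use this pairing, and the array number entered as a block in alternatives only. Alternatives were repeated quantile normalization, median centring, a filter at the 25th percentile, all 12 arrays in 1 fit, trend and robust eBayes, the methods' t-test (Student's, equal variances), averaging of features, 2 forms of replicate block and leaving out arrays.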

Additional observations from a re-analysis of the deposited data

How the results depend on the processing

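The number of the 5 chemokine genes that passed changed with the setting. With all 12 arrays in 1 fit, 1 gene passed in NPM vs NPC (CX3CL1) and 3 in HPM vs HPC (CX3CL1, CXCL1 and CXCL2), against 0 in each. Over all features 2.53% and 5.47% passed in that fit. With trend and robust eBayes the gene counts were 1 and 2, and 1 in the interaction, beside 2.73%, 6.49% and 1.05% of all features. With the filter at the 25th percentile they were 1 and 2, beside 1.3% and 6.97% of the features kept. With the block within an oxygen level they were 1 and 4, and 2 in the interaction, beside 8.76%, 14.9% and 3.3% of all features. The methods' t-test after adjustment passed 1 gene in the interaction, and 261 of all 34487 features. In HPM vs NPM, CX3CL1 joined CXCL1 and CXCL2 with all 12 arrays (adjusted p = 0.0320), trend and robust eBayes (0.0247), the filter (0.0462), the methods' t-test (0.0484) and the block within an oxygen level (0.0410). Of the features tested, 16.2% passed there with all 12 arrays, 16.1% with trend and robust eBayes, 19.5% with the filter and 15.8% with that block. The methods' t-test passed 2291 of 34487. Over 16 alternatives the limma or t-test adjusted p of CX3CL1 in NPM vs NPC lay between 0.000106 and 0.350, with a log2 difference between 1.43 and 1.59. The replicate number as a plain block over the 6 arrays of a comparison changed no call of a member, with adjusted p = 0.137 for CX3CL1 in NPM vs NPC, 0.0655 in HPM vs HPC and 0.0393 for CXCL1 and CXCL2 in HPM vs NPM.

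Leaving out 1 array at a time gave 0 to 2 passing genes in HPM vs NPM, and 0 in the interaction and in the other 3 comparisons. Without the arrays numbered 3 the count in HPM vs NPM was 0. The sign turned for uncalled values only. In NPM vs NPC the log2 difference ranged from -0.434 to 0.102 for CXCL5 and from -0.119 to 0.0675 for CXCL8 when 1 array was left out, and the CXCL5 interaction ranged from -0.380 to 0.156. Of 425 values of single genes under alternatives, 385 kept their sign and side of the threshold.

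Over all features, the count that passed in NPM vs NPC was 8, and it was 872 with all 12 arrays, 940 with trend and robust eBayes, 335 with the filter, 57 with the methods' t-test, 1 with the plain block and 3022 with the block within an oxygen level. In HPM vs HPC it was 353, against 1885, 2239, 1803, 231, 0 and 5127. In HPC vs NPC it was 54, against 1452, 1639, 826, 14, 0 and 1275. In HPM vs NPM it was 3602, against 5573, 5561, 5041, 2291, 1854 and 5456. In the interaction it was 156, against 363, 311, 261, 31 and 1138 for the last 5 of these settings, and the cause was not tested. Without 1 array the count was 0 to 4 in NPM vs NPC, 0 in HPM vs HPC and in HPC vs NPC, 191 to 1952 in HPM vs NPM and 23 to 73 in the interaction. Without the arrays numbered 3 it was 1 in NPM vs NPC and 0 in the other 4. The planned contrast of neutrophil-attracting with interferon-induced chemokines was not run under any setting, because no interferon-induced member had a named feature.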
